A study of Mus musculus with 2 samples.

Results

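The 10 genes described here encode enzymes of glycolysis and lactate dehydrogenase in isoforms that are used to different degrees in muscle and in other tissues. They are the phosphofructokinase genes Pfkm, Pfkl and Pfkp, the aldolase gene Aldoa, the phosphoglycerate kinase gene Pgk1, the phosphoglycerate mutase gene Pgam2, the enolase genes Eno1 and Eno3, and the lactate dehydrogenase genes Ldha and Ldhb. Every array probe that carried one of these gene names was taken, which gave 21 of the 56605 distinct probes that were not control spots. The rule used the gene names and no measured value. A probe is called detected here where the scanner software marked it as well above background, and a gene is called measured where at least 1 of its probes was detected on both arrays. All 10 genes were measured, out of 16993 measured genes in all. Of the 21 probes, 16 were detected on both arrays, 1 on the KPC-exo array alone and 4 on neither.

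Total RNA of C2C12 myotubes was measured on 2 single-colour Agilent arrays, 1 per group. The KPC-exo culture received 4 µg of exosomes of a KPC line for 24 h. That line came from a pancreatic tumour of mice carrying the alleles KrasLSL-G12D/+ and Trp53LSL-R172H/+ together with Pdx1-Cre, a Cre transgene under a promoter active in the pancreatic lineage. The MPDC-exo culture, the control, received exosomes of MPDC, a ductal epithelial cell line of mouse pancreas, at a dose not given in the sources used here. C2C12 cells are mouse myoblasts that can be fused to multinucleate myotubes by lowering the serum, and both cultures had been kept in 2% horse serum, which yields myotubes in 4 to 6 days. The comparison asks how the RNA of myotubes given cancer cell vesicles differs from that of myotubes given ductal cell vesicles. Both cultures received vesicles, and no culture without them was analysed here. With 1 culture and 1 array per group there was no replicate, so no test was possible and every difference below describes these 2 arrays.

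Glycolysis splits glucose into pyruvate and yields ATP without oxygen, and skeletal muscle relies on it during short, intense work. Phosphofructokinase commits the sugar to the pathway, aldolase cleaves it, phosphoglycerate kinase makes ATP, and phosphoglycerate mutase and enolase prepare the substrate of the last ATP-making step. Lactate dehydrogenase then interconverts pyruvate and lactate. Pfkm, Pgam2 and Eno3 encode the muscle subunits of their families. Pfkl and Pfkp are the liver and platelet types, Eno1 is the enolase of most tissues, and Aldoa and Pgk1 serve muscle and most other tissues alike. Ldha encodes the subunit that predominates in fast skeletal muscle and Ldhb the one that predominates in heart.

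The following paragraphs give a probe's signal in scanner units after background subtraction, and its level as log2 of that signal minus the array's 75th percentile. That percentile was 639 units on the KPC-exo array and 380 units on the MPDC-exo array, so most raw signals were higher on the KPC-exo array and the scaled level was used for the comparison. A difference is the KPC-exo level minus the MPDC-exo level on the log2 scale. Its error is that of the scanner software's error model, which came to 0.20 for the difference of each member gene and does not cover the spread between cultures. A gene with several probes was represented by its brightest. Probes bind their targets with different strength, so levels of different isoforms were not ranked, and isoforms were compared only through the change of their ratio between the arrays. Both arrays shared 1 slide and 1 scan day, 47.6% of probes on the KPC-exo array and 45.9% on the MPDC-exo array were detected, and no spot was saturated. For the 292 measured probes spotted 10 times, the median SD between spots was 0.03 log2 on either array, whereas different probes of 1 gene differed with a pooled SD of 0.36 in their log2 difference over 5736 genes.

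The cultures had the markers of myotubes. All 12 myotube markers were measured on both arrays, their differences had a median of -0.06 and lay between -0.43 for Ckm, the muscle creatine kinase, and 0.34 for Tnnt3, the fast troponin T, and their summed log2 level was 9.46 on the KPC-exo array and 9.44 on the MPDC-exo array. Of 5 markers of myoblasts or dividing cells, 4 were measured (Pax7, Mki67, Ccnb1 and Top2a) and Myf5 was not. At their brightest probes all 4 were lower on the KPC-exo array, with differences from -0.41 to -0.28. Their summed level was 3.56 on the KPC-exo array and 3.93 on the MPDC-exo array. Over measured probes, the difference ran from -0.69 to 0.09 for Top2a and from -0.69 to -0.18 for Ccnb1. The 4 fibroblast markers were all measured, 3 higher and Lum lower (-0.20), with a median difference of 0.24 and a summed level of 6.97 on the KPC-exo array and 6.64 on the MPDC-exo array. Of 7 markers of ductal epithelium, the source of the MPDC vesicles, Krt19 (0.13) and Sox9 (-0.15) were measured, at a summed level of 0.45 on the KPC-exo array and 0.57 on the MPDC-exo array, and Krt7, Epcam, Cdh1, Cftr and Muc1 were not. Of 4 acinar markers, Cela1 was measured, with a difference of -0.06. The part of these markers in the values of the glycolytic genes was not tested, and in a bulk sample fewer cells of a type and less RNA per cell cannot be told apart.

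At their brightest probes, the 10 genes differed by less than 1.5-fold between the arrays. With centring on the spike-in control probes left aside, the genes past that limit in another setting were Eno1 and Ldha. Eno1 did so with background-flagged spots left out, which leaves it to a dimmer probe (-0.87). Ldha did so as a mean over its probes (-0.62). Pgk1 (-0.38), Ldha (-0.36), Eno1 (-0.33), Aldoa (-0.25) and Pfkl (-0.07) were lower on the KPC-exo array, and Pfkp (0.42), Pgam2 (0.25), Ldhb (0.25), Pfkm (0.19) and Eno3 (0.02) were higher. Of these directions, with spike-in centring again left aside, Aldoa's turned under quantile normalization and in the authors' series table. Eno3's turned when centred on the median or on the percentile of detected probes, and Pfkl's in a mean over its probes. By the reported values none of the 10 genes was 2-fold apart, against 1.92% of all measured genes, and none was 1.5-fold apart, against 7.43%. The median difference of the 10 was -0.03, with a range of -0.38 to 0.42, and that of all 16993 measured genes was 0.06, with a 5th to 95th percentile of -0.49 to 0.53. The 5 higher and 5 lower members compare with 58.9% of all genes higher and 41.1% lower. The 3 muscle isoforms Pfkm, Pgam2 and Eno3 had differences between 0.02 and 0.25, with a median of 0.19. Those of Pfkm and Eno3 were within their model error. Ldha (-0.36), Aldoa (-0.25) and Pgk1 (-0.38), which also serve muscle but were not counted among these 3, were lower. For 7 genes the difference exceeded its own model error, 4 of them lower (Pgk1, Ldha, Eno1 and Aldoa) and 3 higher (Pfkp, Pgam2 and Ldhb). Under quantile normalization and in the authors' series table it was exceeded by 3 genes, Eno1, Ldha and Pfkp, and Pgk1 gave -0.19 under that normalization and -0.16 in that table. The model error was exceeded by 4 genes under cyclic loess and by 5 when centred on the median or on the percentile of detected probes. The share of all measured genes past their own model error was not computed, so these counts have no background beside them. The error of 0.20 is also smaller than the pooled SD of 0.36 between probes of 1 gene. Of the reported gene differences, only those of Pgk1 and Pfkp were larger than that SD. The directions of the members are relative to the 75th percentile. Centring on the spike-in control probes shifted the median of all genes to 1.06 and that of the members to 0.97. All 5 lower genes turned higher under that centring, from 0.62 for Pgk1 to 0.93 for Pfkl, and all 10 genes passed 1.5-fold. This shift leaves the differences between members as they are.

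**Figure D1:**
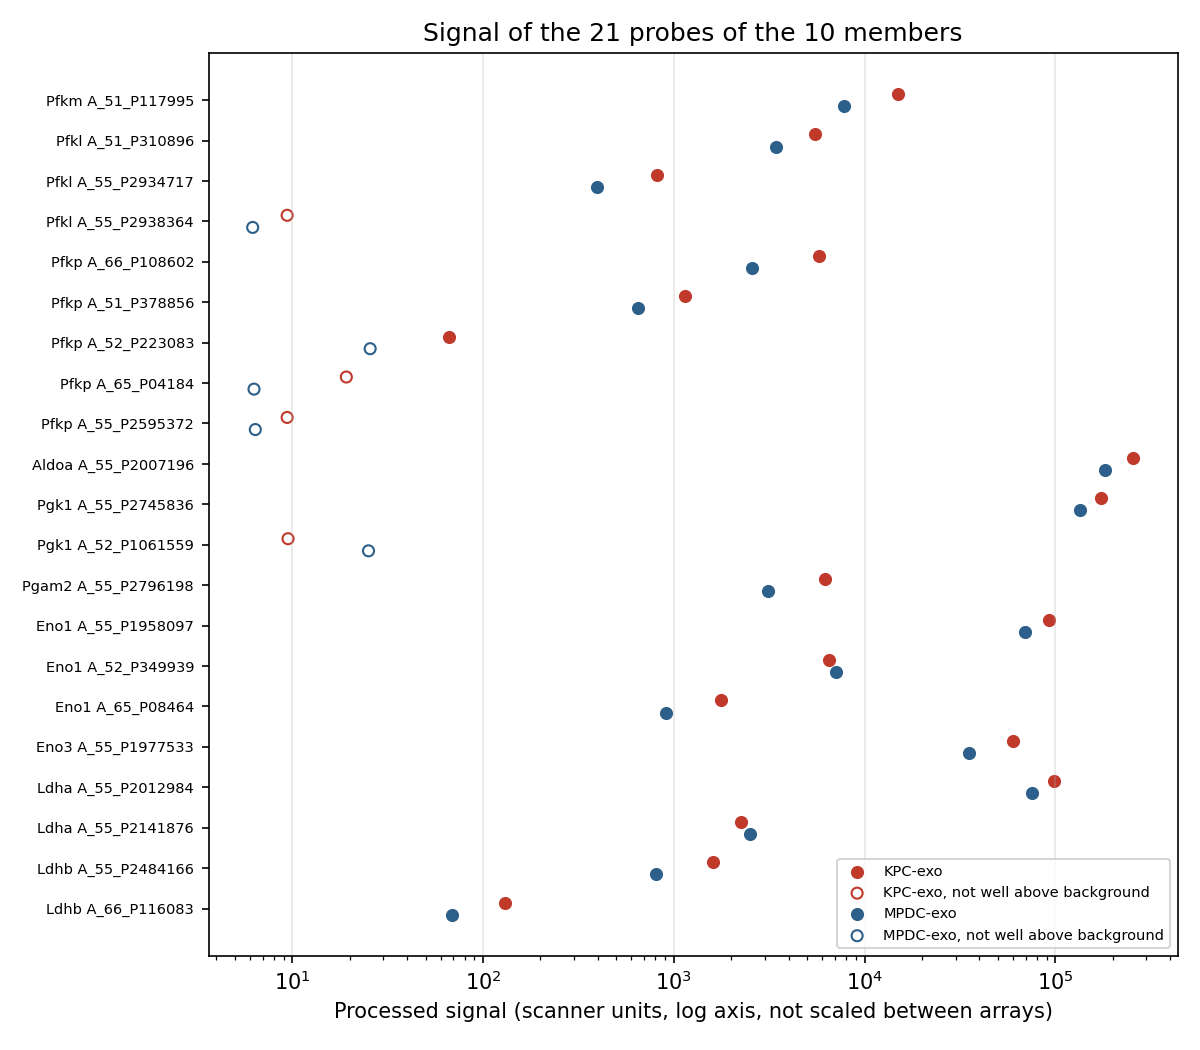
Processed signal (scanner units, log axis, not scaled between the arrays) of the 21 probes of the 10 genes on the KPC-exo and MPDC-exo arrays, 1 spot per array. Open points mark a signal not well above background. Among probes detected on both arrays, only the upstream probes of Eno1 and Ldha had the lower signal on the KPC-exo array. Their scaled differences were -0.87 and -0.89.

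**Figure D2:**
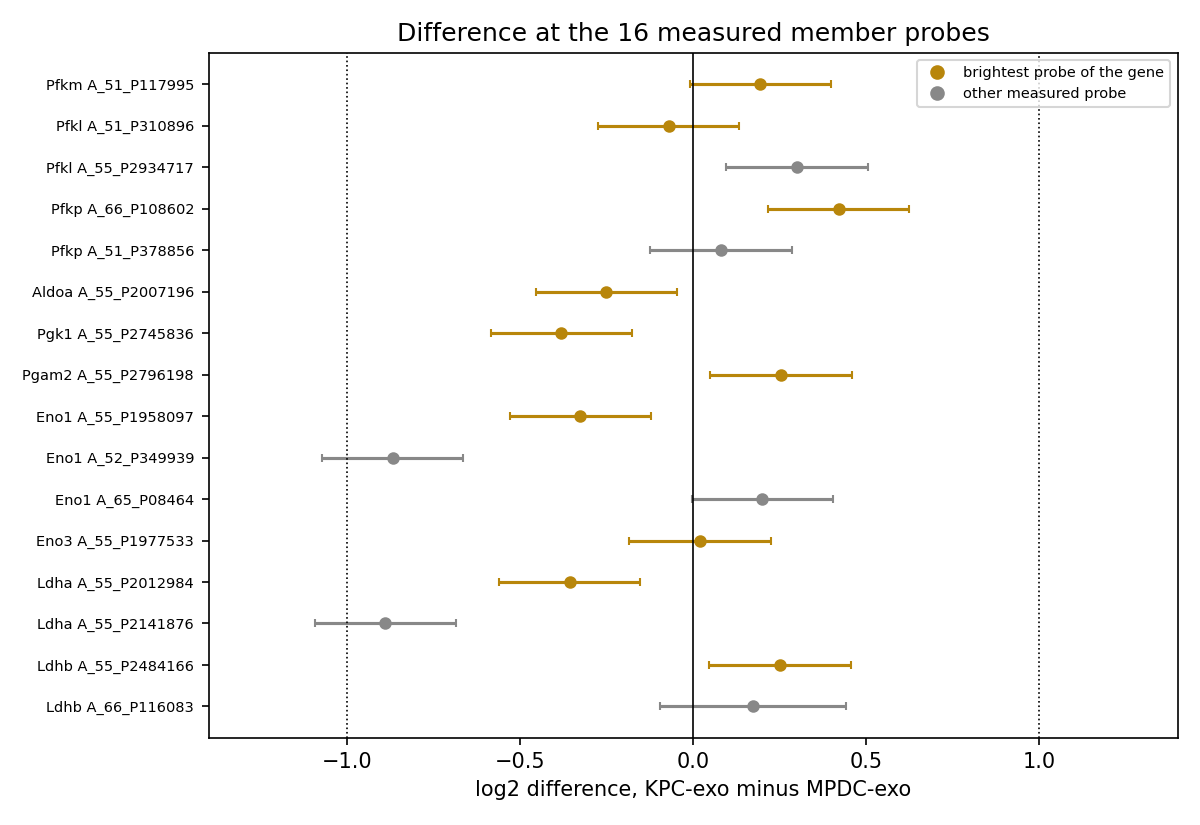
Log2 difference (KPC-exo minus MPDC-exo) of each measured probe, with bars for the error of the scanner software's model and dotted lines at 2-fold. No measured probe reaches 2-fold, and the gene differences run from -0.38 for Pgk1 to 0.42 for Pfkp.

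Among the phosphofructokinases, the enzymes of the committed step, Pfkp was higher on the KPC-exo array by more than its model error. Pfkm (higher) and Pfkl (lower) differed by less than theirs. Pfkm, the muscle subunit (mm9 chr15:97962713-97962772, plus strand), gave 14955 units on the KPC-exo array and 7787 units on the MPDC-exo array, log2 levels of 4.55 (KPC-exo) and 4.36 (MPDC-exo), and a difference of 0.19 (1.14-fold higher). It has 1 probe, and the difference was within the model error. Pfkl, the liver subunit, gave 5474 units on the KPC-exo array and 3423 units on the MPDC-exo array (chr10:77450926-77450985, minus strand), log2 levels of 3.10 (KPC-exo) and 3.17 (MPDC-exo), and a difference of -0.07. A second Pfkl probe, designed on another cDNA, gave 817 units on the KPC-exo array and 395 units on the MPDC-exo array and a difference of 0.30. These Pfkl probes thus differed in sign, and the remaining one was below background on both arrays.

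Pfkp, the platelet subunit, was higher on the KPC-exo array. Its brightest probe (chr13:6580589-6580648, minus strand) gave 5801 units on the KPC-exo array and 2581 units on the MPDC-exo array, log2 levels of 3.18 (KPC-exo) and 2.76 (MPDC-exo), and a difference of 0.42 (1.34-fold higher). A probe in its coding sequence gave 1150 units on the KPC-exo array and 648 units on the MPDC-exo array and a difference of 0.08, so the size depended on the probe. A probe of a predicted longer transcript was detected on the KPC-exo array only, at 66.2 units there and 25.6 units on the MPDC-exo array. Measured from the detection limit, this is a bound of 1.26-fold (0.34 log2) in favour of KPC-exo. The model error of that probe's difference was 0.51, larger than the bound. Of the 5 Pfkp probes, 2 were below background on both arrays.

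Aldoa and Pgk1 were both lower on the KPC-exo array, with the exceptions given above. Aldoa, the aldolase of muscle and red cells (chr7:133938816-133938875, minus strand), gave 256796 units on the KPC-exo array and 181998 units on the MPDC-exo array, log2 levels of 8.65 (KPC-exo) and 8.90 (MPDC-exo), and a difference of -0.25 (1.19-fold lower). The raw signal was thus higher on the KPC-exo array and the scaled level lower. Aldoa has 1 probe on the array. Pgk1, which catalyses the first ATP-making step of the pathway (chrX:103398915-103398974, plus strand), gave 173052 units on the KPC-exo array and 134184 units on the MPDC-exo array, log2 levels of 8.08 (KPC-exo) and 8.46 (MPDC-exo), and a difference of -0.38 (1.30-fold lower). The difference lay between -0.44 and -0.16 over 11 alternative settings, centring on spike-in probes left aside. The other probe named Pgk1 is placed on the opposite strand and was below background on both arrays, at 9.5 units on the KPC-exo array and 25.1 units on the MPDC-exo array.

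Pgam2, the muscle phosphoglycerate mutase (chr11:5701648-5701707, minus strand), gave 6221 units on the KPC-exo array and 3106 units on the MPDC-exo array, log2 levels of 3.28 (KPC-exo) and 3.03 (MPDC-exo), and a difference of 0.25 (1.19-fold higher) at its 1 probe. Pgam1, the mutase of most tissues and not one of the 10 genes, had levels of 7.27 on the KPC-exo array and 7.33 on the MPDC-exo array and a difference of -0.06. The Pgam1 to Pgam2 ratio was therefore 1.25-fold lower on the KPC-exo array (-0.32 ± 0.29 on the log2 scale, model error), and it lay between -0.32 and -0.16 over 12 alternative settings. It was within that error under quantile normalization (-0.25) and cyclic loess (-0.22). The same held in the authors' series table (-0.16) and for means over probes (-0.25). Settings that shift a whole array cannot change a ratio, and the other filters on dim probes left this ratio and those below unchanged. The ranges of the ratios thus rest on the remaining settings.

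The enolases showed a lower Eno1 and a nearly equal Eno3 on the KPC-exo array. Eno1 at its brightest probe (chr4:149622928-149622987, plus strand) gave 93004 units on the KPC-exo array and 69466 units on the MPDC-exo array, log2 levels of 7.19 (KPC-exo) and 7.51 (MPDC-exo), and a difference of -0.33 (1.25-fold lower). Its upstream coding probe gave 6476 units on the KPC-exo array and 7041 units on the MPDC-exo array, log2 levels of 3.34 (KPC-exo) and 4.21 (MPDC-exo), and a difference of -0.87 (1.83-fold lower). None of the 16 detected probes of the 10 genes was 2-fold apart, against 2.47% of all such probes. The upstream Eno1 probe is 1 of 2 past 1.5-fold, both lower, against 10.1% of all such probes in either direction and 5.41% lower. Another Eno1 probe, on a separate transcript record, gave 1761 units on the KPC-exo array and 913 units on the MPDC-exo array and a difference of 0.20. The brightest Eno1 probe shared runs of 53 and 45 bases with 2 probes of its near-identical copy Eno1b, whose differences were -0.34 and -0.10, so RNA of the 2 genes cannot be told apart at it. Eno3, the muscle enolase (chr11:70475953-70476012, plus strand), gave 60104 units on the KPC-exo array and 35313 units on the MPDC-exo array, log2 levels of 6.56 (KPC-exo) and 6.54 (MPDC-exo), and a difference of 0.02. The Eno1 to Eno3 ratio was 1.27-fold lower on the KPC-exo array (-0.35 ± 0.29, model error). It lay between -0.38 and -0.33 over 11 alternative settings, several of which cannot change a ratio. Leaving out background-flagged spots, which put Eno1 at -0.87, removed Eno3 and so gave no ratio.

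The lactate dehydrogenase subunits differed in opposite directions. Ldha at its brightest probe (chr7:54110937-54110996, plus strand) gave 98419 units on the KPC-exo array and 75038 units on the MPDC-exo array, log2 levels of 7.27 (KPC-exo) and 7.62 (MPDC-exo), and a difference of -0.36 (1.28-fold lower). Its upstream coding probe gave 2262 units on the KPC-exo array and 2496 units on the MPDC-exo array, log2 levels of 1.82 (KPC-exo) and 2.71 (MPDC-exo), and a difference of -0.89 (1.85-fold lower), the other member probe past 1.5-fold. Both Ldha probes were thus lower on the KPC-exo array. Ldhb (chr6:142438829-142438888, minus strand) gave 1612 units on the KPC-exo array and 807 units on the MPDC-exo array, log2 levels of 1.34 (KPC-exo) and 1.09 (MPDC-exo), and a difference of 0.25 (1.19-fold higher). A second Ldhb probe, in the coding sequence, gave 131 units on the KPC-exo array and 69.1 units on the MPDC-exo array and a difference of 0.17 with an error of 0.27. The Ldha to Ldhb ratio was 1.52-fold lower on the KPC-exo array (-0.61 ± 0.29, model error). It lay between -0.83 and -0.45 over 12 alternative settings, several of which cannot change a ratio. Of the 5 isoform ratios formed, this one had the largest difference. The Pfkl to Pfkm ratio was 1.20-fold lower (-0.26) and the Pfkp to Pfkm ratio 1.17-fold higher (0.23) on the KPC-exo array, both within the model error of 0.29. Over 12 alternative settings the Pfkl to Pfkm ratio lay between -0.35 and -0.08 and the Pfkp to Pfkm ratio between 0.06 and 0.23.

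The probes with the largest differences are the upstream probes of Ldha and Eno1, and their letters are shown with those of the coding probes of Ldhb and Pfkp, which did not differ in that way. Each is 60 bases, read 5′ to 3′ from the scanner files, with its mm9 position, and each holds 1 reading frame without a stop codon. The Ldha probe (chr7:54103010-54103069, plus strand) starts at base 351 of its transcript and the Eno1 probe (chr4:149618134-149618359, plus strand) at base 413. The Ldhb probe (chr6:142444206-142447028, minus strand) starts at base 528 and the Pfkp probe (chr13:6581718-6583872, minus strand) at base 2185. For Eno1, Ldhb and Pfkp the placement spans more than 60 bases of genome, as a probe across an exon junction would.
Ldha: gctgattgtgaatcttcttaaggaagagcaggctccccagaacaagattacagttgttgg
Eno1: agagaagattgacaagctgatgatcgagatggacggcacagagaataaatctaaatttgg
Ldhb: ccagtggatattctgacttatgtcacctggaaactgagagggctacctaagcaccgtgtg
Pfkp: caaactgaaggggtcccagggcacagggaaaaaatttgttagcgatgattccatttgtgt
The Ldha probe gave a difference of -0.89, against -0.36 at the downstream probe of the same transcript, and the Eno1 probe gave -0.87, against -0.33 downstream. The Ldhb probe gave 0.17 and the Pfkp probe 0.08, each beside a downstream probe on another record of its gene (0.25 for Ldhb and 0.42 for Pfkp).

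Gaps between upstream and downstream probes were common on these arrays. Over 3315 RefSeq transcripts with 2 measured probes at least 300 bases apart, the upstream probe's difference minus the downstream probe's had a median of -0.16, and it was negative in 64.5% of transcripts. The median was 0.02 for probes 300 to 600 bases apart (681 transcripts), -0.17 for 600 to 1000 (765), -0.25 for 1000 to 1500 (528), -0.23 for 1500 to 2500 (589) and -0.25 beyond 2500 (752). Upstream probes were lower by a similar amount once more than 1000 bases separated the pair. The Ldha gap was -0.53 over 1404 bases and the Eno1 gap -0.54 over 1308 bases. Both lay within the 5th to 95th percentile of transcripts with 1000 to 1500 bases between probes, -0.99 to 0.45, and near the lower quartile of -0.56. Among other genes of glucose and lactate handling, 5 transcripts had such a pair of probes. The gap was -0.67 for Tpi1, triosephosphate isomerase, -0.66 for Pkm, pyruvate kinase, -0.19 for Eno1b, -0.11 for Gapdh, glyceraldehyde phosphate dehydrogenase, and 0.05 for Gpi1, glucose phosphate isomerase. The part of probe position in the Ldha and Eno1 differences was not tested.

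**Figure D3:**
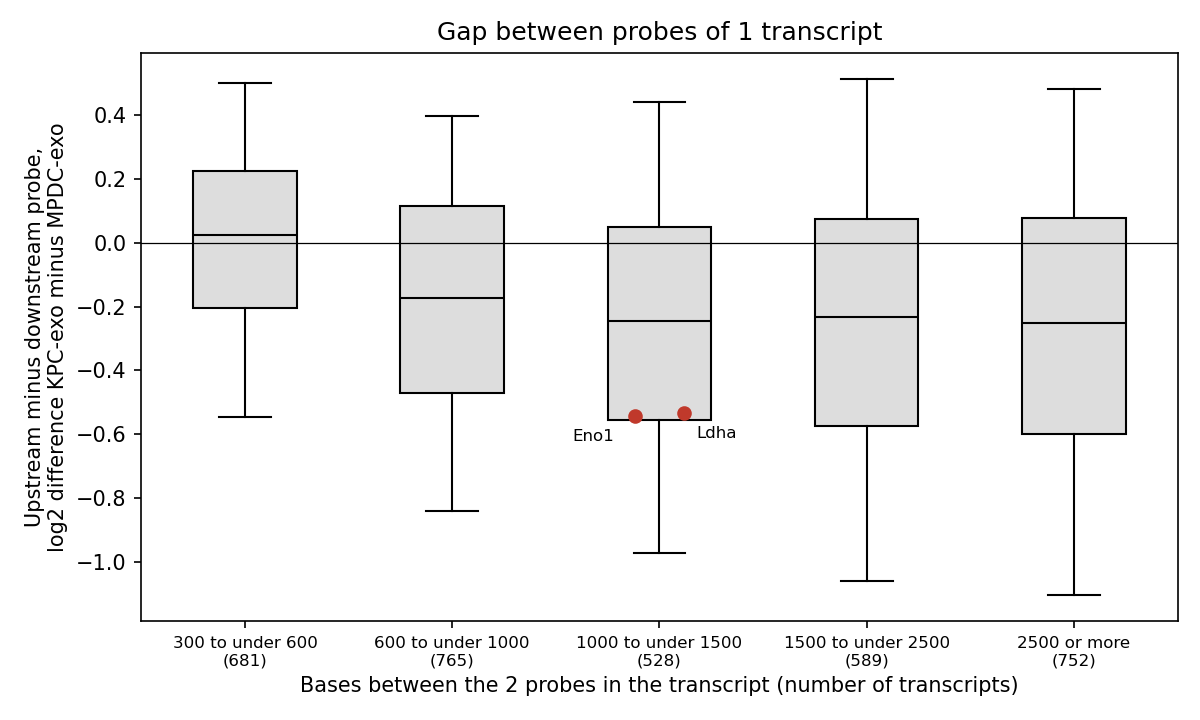
Upstream minus downstream probe difference (log2) by the distance between the probes of a transcript, with boxes for the quartiles and whiskers for the 5th and 95th percentile. The medians lie below 0 from 600 bases on, and Ldha (-0.53) and Eno1 (-0.54) lie inside the whiskers of their class.

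The 4 members that were lower by more than their error stood in the 2 brightest classes of genes. Of the measured genes, 113 had a mean log2 level above 8, among them Aldoa and Pgk1, and their median difference was -0.24, with a 5th to 95th percentile of -0.48 to -0.03. The median of these genes was -0.03 under quantile normalization and 0.02 in the authors' series table. The 365 genes with a level of 7 to 8, among them Eno1 and Ldha, had a median of -0.12. For the 568 genes at 6 to 7, which hold Eno3, it was -0.03, and for the 2408 genes at 4 to 6, which hold Pfkm, it was 0.04. The 3872 genes at 2 to 4, with Pfkl, Pfkp and Pgam2, had a median of 0.08 and the 3780 genes at 0 to 2, with Ldhb, one of 0.09. Set against the median of their class, Aldoa differed by -0.01, Pgk1 by -0.14, Eno1 by -0.21 and Ldha by -0.24. The same measure gave 0.34 for Pfkp, 0.18 for Pgam2, 0.16 for Pfkm, 0.16 for Ldhb, 0.05 for Eno3 and -0.15 for Pfkl. Aldoa thus differed as the genes of its class did. Ldha (-0.3562) lay just below the 5th percentile of its class (-0.3558), and Eno1 (-0.33) lay above it. Pfkp (0.42) lay just below the 95th percentile of its class (0.43). The isoform ratios given above each set genes of different classes against each other and were not adjusted for the class medians. The part of brightness in these values and ratios was not tested.

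**Figure D4:**
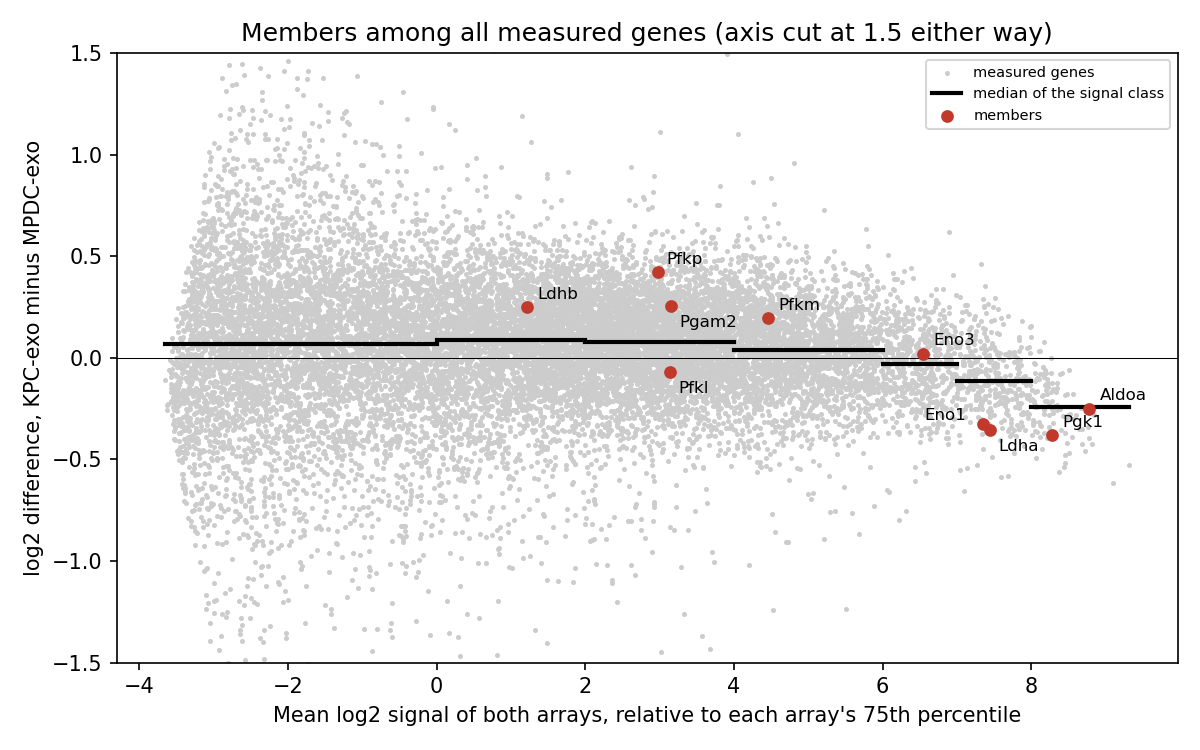
Log2 difference (KPC-exo minus MPDC-exo) against mean log2 level for all 16993 measured genes, with the 10 members marked and the class medians drawn; 102 genes lie beyond the plotted range. Class medians run from 0.09 at levels of 0 to 2 to -0.24 above 8 (-0.03 under quantile normalization), and Aldoa, Pgk1, Eno1 and Ldha lie in the 2 highest classes.

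The rest of the pathway was read from 38 genes that handle glucose entry, the remaining glycolytic steps and lactate. Of these, 37 were on the array and 22 were measured, 10 of them higher and 12 lower with KPC-exo, and none was 1.5-fold apart, against 7.43% of all genes. Their median difference was -0.05, with a range of -0.26 to 0.38. The paralogs of the 10 genes divided. Aldoc, the brain aldolase, had levels of 0.99 on the KPC-exo array and 1.23 on the MPDC-exo array and a difference of -0.24. Eno2, the neuronal enolase, had levels of 2.67 on the KPC-exo array and 2.36 on the MPDC-exo array and a difference of 0.31. Pgk2, the testis form of the kinase, was not well above background at its 1 probe. Ldhc, the testis subunit, was above it at 1 of 3 probes on the MPDC-exo array only. At that probe the bound was 1.16-fold lower with KPC-exo (-0.21 log2), and no model error was computed for it.

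Among the 22 genes of the list measured on both arrays, the 4 largest differences were those of Pgm2, a phosphoglucomutase (0.38), Pfkfb1, which sets the level of the phosphofructokinase activator fructose 2,6-bisphosphate (0.37), Eno2 (0.31) and Hk2, the insulin-regulated hexokinase of muscle (0.31). Pgm2 had levels of 0.01 (KPC-exo) and -0.37 (MPDC-exo). Pfkfb1 had levels of -2.19 (KPC-exo) and -2.56 (MPDC-exo), and Hk2 of 2.42 (KPC-exo) and 2.11 (MPDC-exo). All 4 rest on 1 measured probe each. At their brightest probes, the lactate transporters Slc16a1 (0.10) and Slc16a3 (0.30) were both higher on the KPC-exo array. Gapdh (-0.19), Pkm (-0.26) and Gpi1 (-0.14) were lower there and Tpi1 was higher (0.14). The differences of Slc16a1, Gapdh, Gpi1 and Tpi1 were within the model error of 0.20. Over measured probes, the difference ran from -0.53 to 0.74 for Tpi1 and from -0.80 to 0.13 for Pkm. Among glucose transporters, Slc2a1 gave -0.10 and Slc2a4, the insulin-responsive one, -0.17, both within their model error. Slc2a3, named after its value was seen, was detected at 1 of its 2 probes on the KPC-exo array and at none on the MPDC-exo array. At that probe the bound was 4.99-fold higher with KPC-exo. Hk1, also named afterwards, differed by -0.25 at its brightest probe and by 0.80 at another probe.

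**Figure D5:**
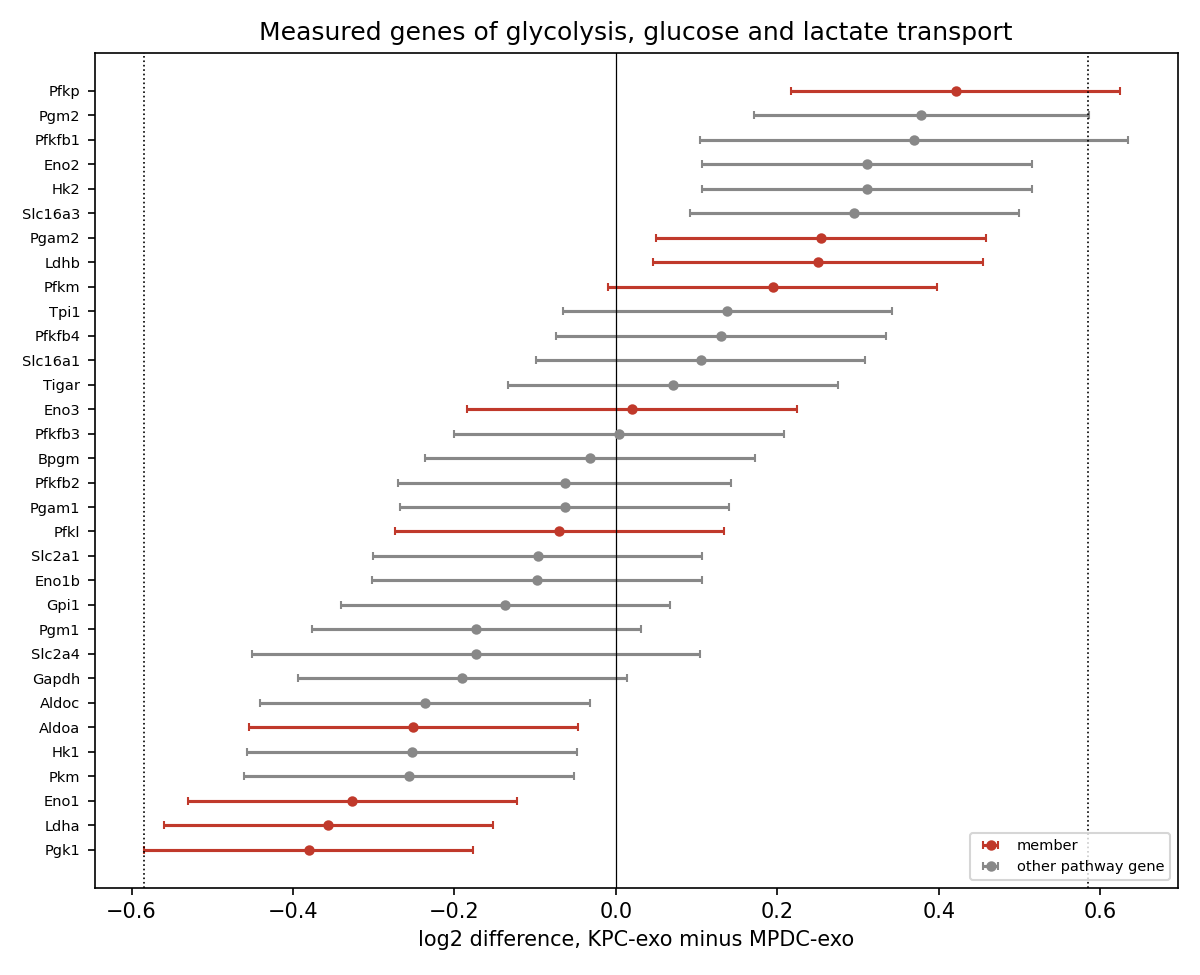
Log2 difference (KPC-exo minus MPDC-exo) of the measured genes of the 38-gene pathway list beside the 10 members, with bars for the model error and dotted lines at 1.5-fold. All points lie inside the dotted lines, from -0.38 for Pgk1 to 0.42 for Pfkp.

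Promoters were read because 4 members (Pgk1, Ldha, Eno1 and Aldoa) were lower by more than their model error at the reported values. These genes also stood in the brightest classes. Aldoa was higher under quantile normalization (0.13) and in the authors' series table (0.14). In RefSeq windows of the 250 bases before a transcript start (GRCm38.p6, 32851 windows, 18 of them of the 10 genes), both strands were searched for ACGTG, the core of the hypoxia response element, for CACGTG, the E-box bound by MYC and MAX among others, which contains ACGTG on both strands, and for CAGCTG, an E-box form bound by myogenic factors. ACGTG stood in 16.6% of all windows and in 6 of the 18, those of Aldoa, Ldha, Pfkm and Pgk1. The Aldoa windows with a match overlap and hold the same site, 126 and 202 bases before their starts, so this site is counted in both. CACGTG stood in 6.02% of all windows and in those of Ldha and Pfkm, and CAGCTG in 13.0% of all windows and in that of Pgam2. Of these windows, 4 are printed 5′ to 3′ on the gene's strand, with the matches in capitals: those of Ldha and Pgk1, lower on the KPC-exo array, and those of Pfkm and Pgam2, higher on it.
Ldha, chr7:46845554-46845803, plus strand: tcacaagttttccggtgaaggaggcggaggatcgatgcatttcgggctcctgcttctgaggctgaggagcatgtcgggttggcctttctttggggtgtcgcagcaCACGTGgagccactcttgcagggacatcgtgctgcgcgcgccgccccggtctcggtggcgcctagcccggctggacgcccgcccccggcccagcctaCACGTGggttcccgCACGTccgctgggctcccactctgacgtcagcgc
Pgk1, chrX:106186850-106187099, plus strand: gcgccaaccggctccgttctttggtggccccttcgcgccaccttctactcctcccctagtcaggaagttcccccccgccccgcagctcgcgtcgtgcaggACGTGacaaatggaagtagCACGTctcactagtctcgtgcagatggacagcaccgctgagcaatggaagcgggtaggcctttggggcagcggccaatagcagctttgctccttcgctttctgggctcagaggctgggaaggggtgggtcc
Pfkm, chr15:98092339-98092588, plus strand: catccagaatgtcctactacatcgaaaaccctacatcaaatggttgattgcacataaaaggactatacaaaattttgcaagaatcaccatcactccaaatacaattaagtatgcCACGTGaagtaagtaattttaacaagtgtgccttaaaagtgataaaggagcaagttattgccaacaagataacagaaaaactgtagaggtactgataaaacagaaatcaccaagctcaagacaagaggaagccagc
Pgam2, chr11:5803797-5804046, minus strand: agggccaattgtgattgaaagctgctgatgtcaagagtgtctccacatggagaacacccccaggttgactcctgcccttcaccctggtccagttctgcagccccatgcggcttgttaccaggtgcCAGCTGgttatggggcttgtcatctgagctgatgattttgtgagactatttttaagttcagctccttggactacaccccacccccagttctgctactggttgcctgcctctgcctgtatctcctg
Ldha holds 3 runs in capitals, Pgk1 2, and Pfkm and Pgam2 1 each. Eno1, which was also lower, has no ACGTG in its windows. Pfkm, which was higher but within its model error, has it in 2 of its windows. Any link between these matches and the differences was not tested. A match is a description of these letters and not a binding site, and its absence concerns this window only.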

How the data were processed

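The 2 arrays were grouped by the treatment in the labels, 1 per group. Per the labels' protocols, 0.5 µg of RNA was labelled with Cy3. Per the file headers, the deposited spot intensity is Agilent Feature Extraction 10.7.1.1's processed signal, background-subtracted and not scaled between arrays, with flags for outlier spots and for signal well above background, and with positions on mm9. The authors' series table holds log2 values, and how they were made was not stated there. It correlated at 1.00 with the scanner values on either array, had a median of 4.89 in both columns, and served as an alternative.

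Spots flagged as non-uniform or population outliers (166 on the KPC-exo array and 102 on the MPDC-exo array, none of a member) were left out, spots of a probe averaged, log2 taken and each array's 75th percentile subtracted. A gene was represented by the brightest of its probes detected on both arrays. A gene detected on 1 array was bounded against the higher of its own signal and the other array's lowest detected signal (47.3 units on KPC-exo, 31.2 on MPDC-exo). Accessions of 32994 probes matched RefSeq, which updated the names of 1533 probes. With 1 array per group no p-value was computed. The named genes are all 10 members, the paralogs in the pathway list and its 4 largest differences, plus those marked as named later; 1 gene that this rule names is not reported here. The members and lists were chosen with earlier results of these data known. The computation was tested on simulated data. Python 3.11.15, numpy 2.4.6, pandas 2.3.3, matplotlib 3.10.9, R 4.3.3 and limma 3.58.1 were used.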

Additional observations from a re-analysis of the deposited data

How the results depend on the processing

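Across 11 alternatives (10 for Aldoa and Eno3), leaving aside centring on spike-in probes, Ldha stayed between -0.62 and -0.25, Eno1 between -0.87 and -0.24, Pgk1 between -0.44 and -0.16, Pfkp between 0.25 and 0.51, Pgam2 between 0.19 and 0.31, Ldhb between 0.16 and 0.31 and Pfkm between 0.14 and 0.33. Aldoa (-0.31 to 0.14), Eno3 (-0.04 to 0.14) and Pfkl (-0.13 to 0.12) changed sign. Leaving out spots with a background outlier flag removed Aldoa and Eno3 and left Eno1 to its upstream probe, at -0.87. Centring on 7 spike-in probes put 5 member genes, 9 member probes and 10 pathway genes past 2-fold higher, with a member median of 0.97 and, over all genes, 10010 higher and 24 lower. Against 124 higher and 202 lower genes by the values reported, normexp gave 31 and 107, no filter on dim probes 1617 and 1439, a stricter filter 38 and 114, a 1.5-fold threshold 634 and 629, and a 3-fold threshold 22 and 57. Without the filter 1 member probe (the opposite-strand Pgk1 probe, below background) and 1 higher and 2 lower pathway genes passed 2-fold. With the filter kept, 2 member probes passed 1.5-fold. The cause of these shifts was not tested, beyond the probes and thresholds each setting admits. The isoform ratios, the probe gaps and the brightness classes were chosen after seeing the data. The median probe gap lay between -0.20 and -0.16 over its alternatives, and the median of genes above a level of 8 was -0.03 under quantile normalization, 0.02 in the series table, -0.18 under loess and -0.14 under normexp. No paired analysis was possible because each group has 1 array. The number of arrays limits the precision.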
